A study of Mus musculus with 6 samples.

Results

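A set of 10 genes of bone morphogenetic protein (BMP) signalling and the inhibitor of DNA binding (ID) factors were followed in muscle stem cells (MuSCs) of 3 groups of mice. Its members were the rows of the deposited table with the gene symbols Bmp4, Bmp6, Bmpr1a, Bmpr2, Smad1, Smad5, Smad6, Id1, Id2 and Id3, out of 22706 genes in the table, and each symbol matched 1 row. They were chosen by name for the pathway they belong to, and all 10 passed the filter on low values (a mean of at least 5 over the 6 libraries), as did 15915 genes in all. The table came from bulk RNA-seq of MuSCs, the stem cells that repair skeletal muscle, with 2 libraries in each group and all mice labelled as strain C57BL/6. Control mice were wild type. Mdx mice have a mutated dystrophin gene and serve as a model of Duchenne muscular dystrophy. Sirt6mKO/mdx mice carry the mdx mutation together with Sirt6 fl/fl alleles, from which the Cre recombinase of Pax7-ICNCre, made in cells of the Pax7 lineage, removes exons 4 to 6. The histone deacetylase SIRT6 is therefore targeted from development onwards, in muscle fibres as well as in MuSCs. No drug was given, the ages of these mice are not in the labels, and the methods speak of adult male mice and of biological replicates. Cells were sorted straight from digested limb and trunk muscle by surface antigens or by a fluorescent reporter, and which of these sorts was used for which library is not stated in the sources used here.

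BMPs are secreted ligands of the TGF-beta superfamily. They bind pairs of type I receptors, such as BMPR1A, and type II receptors, such as BMPR2, which phosphorylate SMAD1 and SMAD5, and the phosphorylated SMADs enter the nucleus with SMAD4. Id1, Id2 and Id3 are classical targets of these SMADs. ID proteins bind E proteins such as TCF3 and TCF12 and keep them from pairing with MYOD1 and other basic helix-loop-helix (bHLH) factors, and in muscle the pathway is known to favour proliferation of MuSCs over differentiation. SMAD6 and SMAD7 are inhibitory SMADs that the pathway itself induces, so that their transcripts belong to a negative feedback loop.

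The libraries were not equal in 3 respects that touch the values below. Approximate depth ranged from 4397632 to 9743941 reads, and the 10 most abundant genes took from 11.7% to 32.6% of a library's summed values, most in the libraries labelled Sirt6mKO/mdx. Xist, which is transcribed from the inactive X chromosome, had 16772 and 12950 normalized read counts in the control libraries but 7 and 8 in mdx and 33 and 34 in Sirt6mKO/mdx. The Y-linked gene Ddx3y had 3 and 8 in the control libraries, 1024 and 1055 in mdx and 1555 and 1767 in Sirt6mKO/mdx, and Uty, Eif2s3y and Kdm5d showed the same split. The control libraries thus carried the female pattern against a study described with male mice, and sex and genotype cannot be told apart in any comparison with control. Sirt6 itself had 41 and 32, 33 and 40, and 37 and 30 normalized read counts in control, mdx and Sirt6mKO/mdx, so that a count over the whole gene did not show the deletion of its exons. Of 10 MuSC markers all were above 0 in every library, with summed values of 25408 to 32524, and the most abundant was Chodl (3863 to 7497 normalized read counts). The list was not even: Sdc4, named after its values were seen, had 7692 and 6224 in control mice, 1100 and 1049 in mdx mice and 2753 and 2822 in Sirt6mKO/mdx mice, and was called lower in mdx against control (log2 fold change -2.69), higher in Sirt6mKO/mdx against mdx (1.37) and lower in Sirt6mKO/mdx against control (-1.31). The other 9 were not called in any comparison. Values are normalized read counts, which are reads per gene divided by a size factor of the library. A gene was called when limma gave an adjusted p (Benjamini-Hochberg over the 15915 genes tested) of at most 0.05 and a fold change of at least 2. Fold changes are on the log2(value + 1) scale, which understates changes of low genes. The mdx libraries enter both comparisons that involve mdx, so that a value raised or lowered in mdx alone moves both.

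Promoter stretches with matches to elements that SMADs are known to bind are shown for 5 genes. These were picked as examples of each role, with their values known, and not every gene with a match is shown. RefSeq windows of GRCm38.p6, running 250 bases before to 50 bases after the annotated start, were found for 9 of the 10 genes, all but Id1. Each stretch is 30 bases long and written 5' to 3' on the gene's own strand, and capitals mark the matched letters. Capitals in the first stretch of Id3 also cover a match to the cyclic AMP response motif CGTCA. Position 0 is the first base of the transcript in RefSeq. For Id3 and Bmpr1a that base lies inside the gene span given below for the deposited table, so that their stretches also lie within those spans.
Id3 first stretch, chr4:136143642-136143671, plus strand, positions -180 to -151: ctgtcctcggCGTCAGACcagcctaaggaa
Id3 second stretch, chr4:136143741-136143770, plus strand, positions -81 to -52: tggacccttggcgGTCTGttttgaataagg
Id2, chr12:25096306-25096335, minus strand, positions -243 to -214: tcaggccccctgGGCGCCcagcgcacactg
Smad6, chr9:64022045-64022074, minus strand, positions -15 to 14: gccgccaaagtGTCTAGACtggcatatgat
Bmp6, chr13:38345584-38345613, plus strand, positions -132 to -103: cagcgcacgtgtgCAGACtgcgagtgaccg
Bmpr1a, chr14:34502727-34502756, minus strand, positions -210 to -181: tgcgcgcgcgccGGCGCCtcttgctcgccc

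The SMAD1/5 element GGCGCC, read on both strands, was found in the windows of 4 of the 9 genes (Id2, Smad5, Bmpr1a and Bmpr2) and in 11.9% of all 32851 windows of the table. The SMAD box CAGAC, or GTCTG on the other strand, was found for Id3, Bmp6 and Smad5, which is 3 of 9, and in 49.6% of all windows. The cyclic AMP response motif TGACG, or CGTCA, was found for Id3, Smad1 and Smad5 and in 20.8% of all windows. The counts of genes and the shares of windows are in different units. Smad5 has 3 windows, of which 2 hold GGCGCC at the same place in the genome and 1 holds CAGAC. The other 8 genes have 1 window each. In the first stretch of Id3 the CGTCA match shares letters with the CAGAC match. The palindrome GTCTAGAC, looked for only after the sequences had been read, lies across the annotated start of Smad6 and is found in 0.213% of all windows. These matches are letters in a window and not sites of measured binding.

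Per kilobase of exon, which allows genes of different length to be set side by side, Id3 had the highest mean level of the 10 genes, at 968 normalized read counts per kb over the 6 libraries. That placed it above 97.8% of the tested genes. The ligand genes Bmp6 and Bmp4 followed with mean levels of 275 and 223 per kb, and Id1 with 208. Bmpr1a (142 per kb), Id2 (118 per kb) and Smad5 (101 per kb) formed the middle of the order. Smad1 (31.2 per kb), Bmpr2 (28 per kb) and Smad6 (20.7 per kb) were the lowest, and Smad6 lay above 45.8% of the tested genes. Of the 9 pairs of neighbours in this order, 8 had ranges over the 6 libraries that overlapped, and the exception was Smad5 above Smad1. The order was not the same in each group. Bmp4 was above Bmp6 in both control libraries (226 and 270 against 171 and 143 per kb). The same held in both mdx libraries (188 and 293 against 125 and 224 per kb). In Sirt6mKO/mdx Bmp4 was below Bmp6 (173 and 190 against 578 and 407 per kb). In mdx replicate 2 Bmp4 was also above Id3 (234 per kb). In both mdx libraries the level of Id1 (97.4 and 44.8 per kb) was below that of Bmpr1a (239 and 173 per kb), while in Sirt6mKO/mdx it was above it in both libraries (287 and 345 against 100 and 124 per kb). Lengths were taken from GENCODE M21, in which Bmp6, Bmpr2 and Id2 run beyond their spans in the deposited table. For Id2 the exonic length of 2438 bases exceeds its span of 2292 bases in that table. The levels per kb of these genes may therefore be understated.

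**Figure D1:**
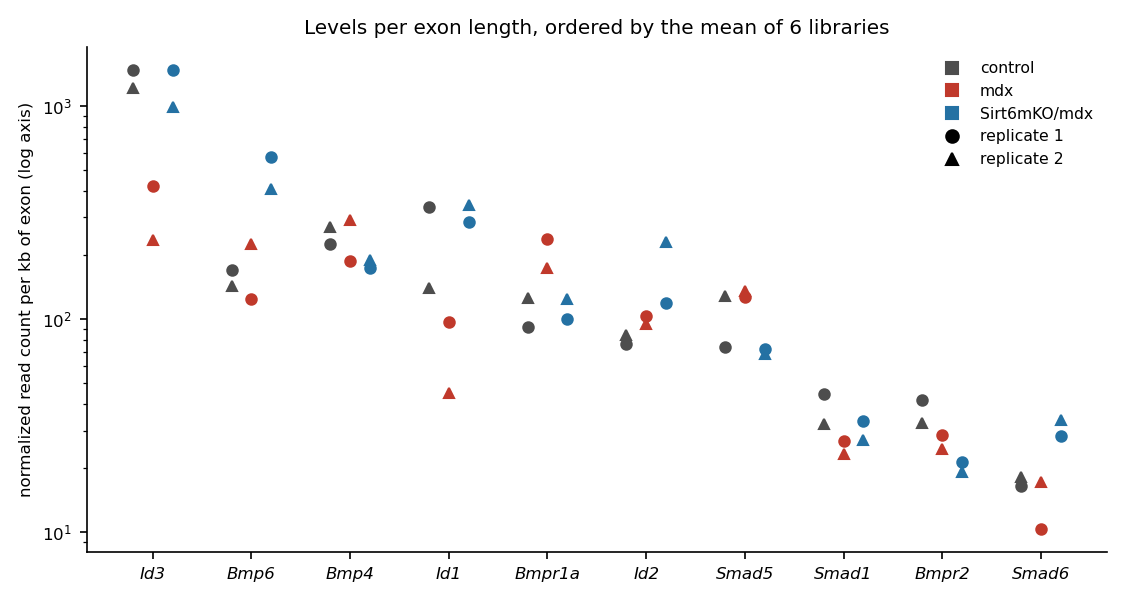
Normalized read counts per kb of exon (log axis) of the 10 genes, ordered by their mean, with a circle for replicate 1 and a triangle for replicate 2 of each group. Id3 had the highest mean level (968 per kb) and Smad6 the lowest (20.7 per kb), and the mdx points of Id3 lie apart from the other 4.

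Among the ligands, Bmp6 was higher in Sirt6mKO/mdx than in either other group, while Bmp4 was not called in any comparison on the deposited scale. BMP6 (ENSMUSG00000039004; chromosome 13, 38345716 to 38499728, plus strand, GRCm38) is a ligand made by endothelial cells of the liver, among others, and is known to induce hepcidin in hepatocytes and thus to control iron balance. It had 665 and 557 normalized read counts in control mice, 487 and 874 in mdx mice and 2256 and 1586 in Sirt6mKO/mdx mice. The lowest Sirt6mKO/mdx library was therefore well above the highest of the other 4, while the control values lay within the range of the mdx values. Bmp6 was 2.90-fold higher in Sirt6mKO/mdx than in mdx (log2 fold change 1.53, 95% interval 0.90 to 2.17, limma, Benjamini-Hochberg adjusted p = 0.00535) and 3.10-fold higher than in control (log2 fold change 1.63, 95% interval 1.0 to 2.27, adjusted p = 0.00317). Between mdx and control its log2 fold change was 0.10, with an interval from -0.53 to 0.73. The call against mdx was lost without mdx replicate 1 (log2 fold change 1.11, adjusted p = 0.0995), without Sirt6mKO/mdx replicate 1 (1.28, adjusted p = 0.155) and without Sirt6mKO/mdx replicate 2 (1.79, adjusted p = 0.051). The call against control was lost without Sirt6mKO/mdx replicate 1 (1.38, adjusted p = 0.0981).

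In the GENCODE M21 annotation the exons of Bmp6 share 224 bases, or 5.74% of its exonic length, with the antisense gene Txndc5, named here after its values were seen. It encodes a disulphide isomerase of the endoplasmic reticulum. Txndc5 had 736 and 910 normalized read counts in control, 1026 and 994 in libraries of mdx mice and 404 and 579 in those of Sirt6mKO/mdx. Its change against mdx (log2 fold change -1.06, adjusted p = 0.0191) was opposite in sign to that of Bmp6. In the spans of the deposited table Bmp6 and Txndc5 do not overlap, as Bmp6 ends at 38499728 and Txndc5 starts at 38500273. The use of strand in counting is not stated.

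BMP4 (ENSMUSG00000021835; chromosome 14, 46383520 to 46390669, minus strand) is the ligand most used to hold myogenic cells in an undifferentiated state. Bmp4 had 508 and 606 normalized read counts in the control libraries, 422 and 658 in mdx and 390 and 428 in Sirt6mKO/mdx. The mdx libraries spanned the values of all other libraries but the lower Sirt6mKO/mdx one. Its log2 fold change was -0.07 for mdx against control (adjusted p = 0.882), -0.37 for Sirt6mKO/mdx against mdx (0.423) and -0.44 for Sirt6mKO/mdx against control (0.334), and its intervals reached from -1.01 to 0.49.

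The receptor genes were not called in any comparison on the deposited scale, although 2 of their 6 tests had an adjusted p of at most 0.05 with a change short of 2-fold. BMPR1A (ENSMUSG00000021796; chromosome 14, 34410734 to 34503341, minus strand) is the type I receptor that phosphorylates SMADs. Bmpr1a had 585 and 802 normalized read counts in control mice, 1517 and 1099 in mdx mice and 635 and 786 in Sirt6mKO/mdx mice. Both mdx libraries were above all 4 others, which overlapped each other. Bmpr1a was 1.88-fold higher in mdx than in control (log2 fold change 0.91, 95% interval 0.35 to 1.48, adjusted p = 0.0289) and 1.83-fold lower in Sirt6mKO/mdx than in mdx (log2 fold change -0.87, interval -1.44 to -0.30, adjusted p = 0.0538). Against control the log2 fold change in Sirt6mKO/mdx was 0.04 with an interval from -0.52 to 0.61. Bmpr1a passed both criteria in mdx without control replicate 2 (1.14, adjusted p = 0.0271) and without mdx replicate 2 (1.15, adjusted p = 0.0494).

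BMPR2 (ENSMUSG00000067336; chromosome 1, 59764279 to 59870549, plus strand) is the type II receptor of BMPs. Bmpr2 had 749 and 583 normalized read counts in control, 513 and 444 in libraries of mdx mice and 385 and 346 in those of Sirt6mKO/mdx. The 3 groups did not overlap and stood in the order control, mdx and Sirt6mKO/mdx from high to low. Its log2 fold change was -0.47 for mdx against control (adjusted p = 0.216), -0.39 for Sirt6mKO/mdx against mdx (0.356) and -0.85 for Sirt6mKO/mdx against control (95% interval -1.38 to -0.33, adjusted p = 0.0426), the last being 1.81-fold lower and thus short of a call.

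The SMAD genes had no call on that scale either. SMAD1 (ENSMUSG00000031681; chromosome 8, 79338395 to 79399518, minus strand) and SMAD5 (ENSMUSG00000021540; chromosome 13, 56703010 to 56742377, plus strand) are the receptor-activated SMADs of the BMP branch. Smad1 had 278 and 202 normalized read counts in the control libraries, 167 and 146 in mdx and 209 and 169 in Sirt6mKO/mdx. The mdx libraries were the lowest, by 2 counts below the nearest Sirt6mKO/mdx library. The log2 fold change of Smad1 was -0.60 in mdx against control (adjusted p = 0.174), 0.27 in Sirt6mKO/mdx against mdx (0.615) and -0.33 in Sirt6mKO/mdx against control (0.525).

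Smad5 had 551 and 951 normalized read counts in control mice, 944 and 1006 in mdx mice and 539 and 510 in Sirt6mKO/mdx mice. The control libraries differed from each other more than the means of mdx and control did, while both Sirt6mKO/mdx libraries were below all others. Smad5 was 1.86-fold lower in Sirt6mKO/mdx than in mdx (log2 fold change -0.89, 95% interval -1.47 to -0.31, adjusted p = 0.0533), which missed the threshold. Its log2 fold change was 0.43 in mdx against control (adjusted p = 0.309) and -0.46 in Sirt6mKO/mdx against control (0.321).

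SMAD6 (ENSMUSG00000036867; chromosome 9, 63953076 to 64022059, minus strand) binds activated type I receptors and dampens the BMP branch. Smad6 had 53 and 58 normalized read counts in control, 33 and 55 in libraries of mdx mice and 91 and 108 in those of Sirt6mKO/mdx. Both Sirt6mKO/mdx libraries were above the other 4. It was 2.29-fold higher in Sirt6mKO/mdx than in mdx (log2 fold change 1.20, 95% interval 0.31 to 2.09) with an adjusted p of 0.087, and its log2 fold change against control was 0.83 (interval -0.06 to 1.72, adjusted p = 0.243). In mdx against control the value was -0.37 (adjusted p = 0.587).

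**Figure D2:**
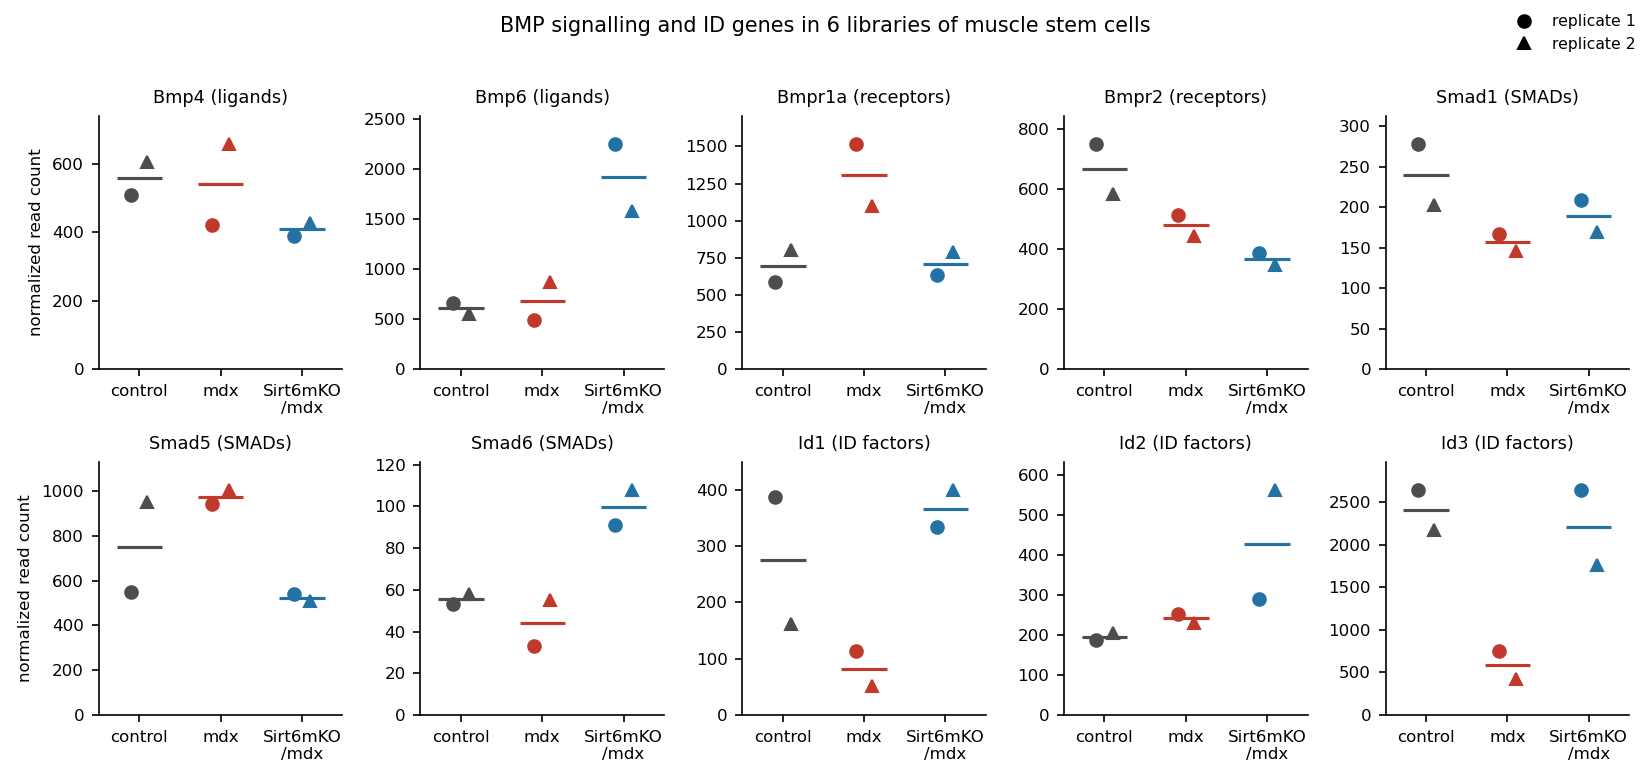
Normalized read counts of the 10 genes in each library (circle, replicate 1; triangle, replicate 2), with a line at each group's mean and the vertical axes starting at 0. Id3 and Id1 were lowest in both mdx libraries, Bmp6 was highest in both Sirt6mKO/mdx libraries, and Bmpr1a was highest in both mdx libraries.

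Id1 and Id3 had the largest called fold changes of the set by size: both fell in mdx against control and both were higher in Sirt6mKO/mdx than in mdx, where they had levels that overlapped those of control. ID3 (ENSMUSG00000007872; chromosome 4, 136143497 to 136145755, plus strand) blocks E proteins and is known in MuSCs as a factor that keeps them uncommitted. Id3 had 2646 and 2177 normalized read counts in the control libraries, 753 and 419 in mdx and 2646 and 1765 in Sirt6mKO/mdx. The highest mdx library was at less than any library of the other groups, while control and Sirt6mKO/mdx shared a range. Id3 was 4.27-fold lower in mdx than in control (log2 fold change -2.09, 95% interval -2.75 to -1.43, adjusted p = 3.5e-04) and 3.84-fold higher in Sirt6mKO/mdx than in mdx (log2 fold change 1.94, interval 1.28 to 2.60, adjusted p = 0.0013). Between Sirt6mKO/mdx and control the log2 fold change was -0.15 with an interval from -0.81 to 0.51. The fall in mdx stayed called when any 1 library was left out (log2 fold change from -2.52 to -1.67), and the difference between Sirt6mKO/mdx and mdx was not called without Sirt6mKO/mdx replicate 1 (1.65, adjusted p = 0.0858).

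ID1 (ENSMUSG00000042745; chromosome 2, 152736251 to 152737410, plus strand) is the ID factor most often used as a readout of BMP-activated SMADs. Id1 had 388 and 162 normalized read counts in control mice, 113 and 52 in mdx mice and 333 and 400 in Sirt6mKO/mdx mice. Both mdx libraries were below all others, but the spread within control and within mdx was wide, and the lower control library was nearer to mdx than to the other control library. Id1 was 3.24-fold lower in mdx than in control (log2 fold change -1.70, 95% interval -2.57 to -0.82, adjusted p = 0.011) and 4.71-fold higher in Sirt6mKO/mdx than in mdx (log2 fold change 2.24, interval 1.36 to 3.11, adjusted p = 0.00367). Against control the log2 fold change in Sirt6mKO/mdx was 0.54 (interval -0.33 to 1.41, adjusted p = 0.457). The call in mdx was lost without control replicate 1 (-1.07, adjusted p = 0.154) and without mdx replicate 2 (-1.14, adjusted p = 0.152). The call in Sirt6mKO/mdx was lost without mdx replicate 2 (1.68, adjusted p = 0.088), without Sirt6mKO/mdx replicate 1 (2.37, adjusted p = 0.0875) and without Sirt6mKO/mdx replicate 2 (2.10, adjusted p = 0.103).

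ID2 (ENSMUSG00000020644; chromosome 12, 25093801 to 25096092, minus strand) is known from the same family, and its transcript was not low in mdx. Id2 had 187 and 206 normalized read counts in control, 253 and 231 in libraries of mdx mice and 291 and 564 in those of Sirt6mKO/mdx. The groups did not overlap and stood in the order control, mdx and Sirt6mKO/mdx from low to high, with replicate 2 of Sirt6mKO/mdx far above the rest. Id2 was 2.06-fold higher in Sirt6mKO/mdx than in control (log2 fold change 1.04, 95% interval 0.39 to 1.70, adjusted p = 0.0465), just inside both criteria. Its log2 fold change was 0.30 in mdx against control (adjusted p = 0.547) and 0.74 in Sirt6mKO/mdx against mdx (0.145). The call against control was lost without control replicate 1 (0.97, adjusted p = 0.135), control replicate 2 (1.11, 0.135), mdx replicate 1 (1.04, 0.09), mdx replicate 2 (1.04, 0.0902) or Sirt6mKO/mdx replicate 2 (0.57, 0.448), and it held without Sirt6mKO/mdx replicate 1. It was also lost with libraries scaled to equal sums of values (0.44, adjusted p = 0.386), with the 10 most abundant genes left out of those sums (0.75, 0.145), with a pseudocount of 0.1 (1.05, 0.0636) and in a fit of the 4 libraries compared (1.04, 0.0918). In bulk samples fewer cells with a transcript and less of it per cell cannot be told apart, which holds for all values given here.

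**Figure D3:**
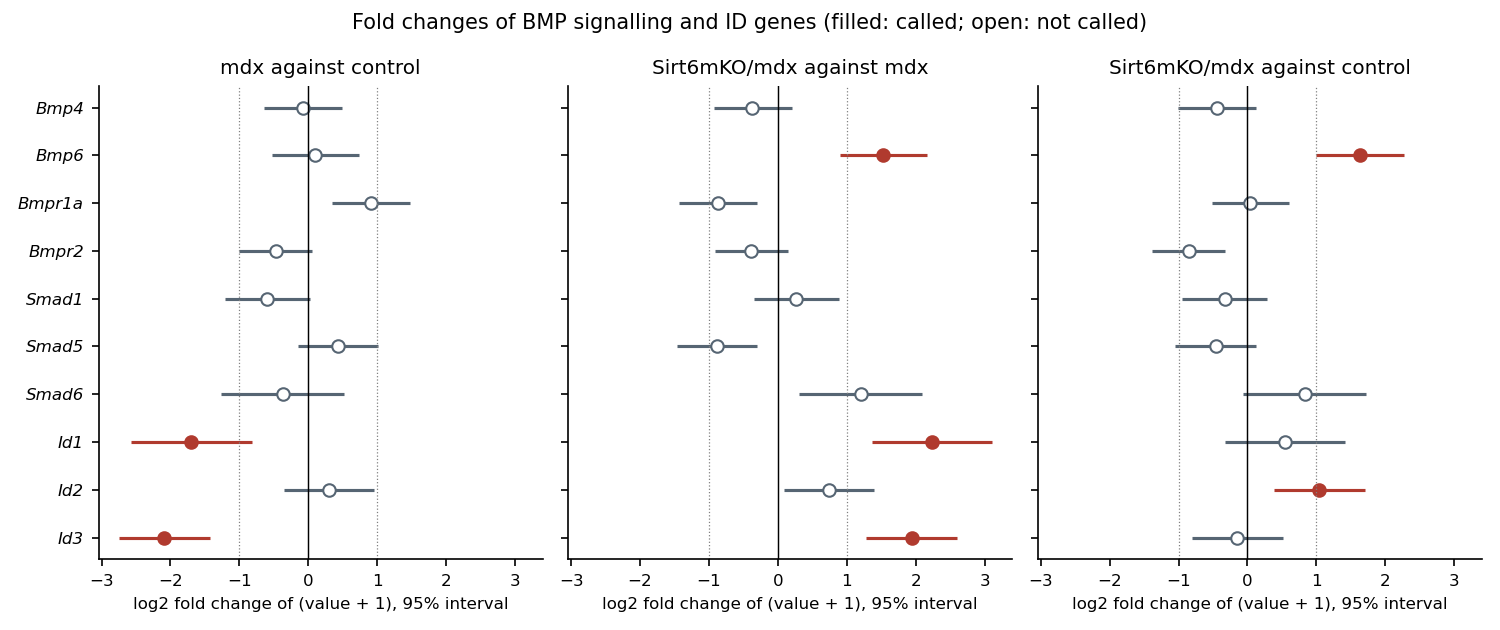
Log2 fold changes of (value + 1) with 95% intervals for the 10 genes in the 3 comparisons, filled where the gene was called and open where it was not; dotted lines mark a 2-fold change. Id1 and Id3 lie left of the dotted line in mdx against control and right of it in Sirt6mKO/mdx against mdx, and Bmp6 is filled in both comparisons of Sirt6mKO/mdx.

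Counted over the 10 genes, 2 were called lower and 0 higher in mdx against control by limma, where 7.34% of all tested genes were called lower and 6.89% higher. At an unadjusted p under 0.05, 1 was higher and 2 were lower, against 31% of all genes in either direction. The count of lower genes was 1 without control replicate 1 or without mdx replicate 2, and 1 gene was called higher without control replicate 2 or without mdx replicate 2. All genes called lower were 1168 with 6 libraries and 657 to 1164 with 1 left out, and those called higher were 1097 and 282 to 1192. In Sirt6mKO/mdx against mdx, 3 were called higher and 0 lower, where 5.62% of all genes were called higher and 2.54% lower. At an unadjusted p under 0.05, 5 were higher and 2 were lower, against 25.2% of all genes. That count of 3 fell to 0 without Sirt6mKO/mdx replicate 1, to 1 without Sirt6mKO/mdx replicate 2 and to 2 without either mdx library. The loss ran across the table, where all genes called higher fell from 895 to 182 and 201 without those Sirt6mKO/mdx libraries and to 429 and 345 without mdx replicate 1 and 2. In Sirt6mKO/mdx against control, 2 were called higher and 0 lower, where 5.19% of all genes were called higher and 2.68% lower. At an unadjusted p under 0.05, 2 were higher and 1 was lower, against 24.1% of all genes. That count of 2 fell to 1 when any 1 of the 6 libraries was left out. All genes called higher went from 826 to 853 without control replicate 1 and to between 167 and 572 without any other library. The 2 libraries of the one group did not overlap with those of the other for 6, 9 and 6 of the 10 genes in the 3 comparisons, where this held for 57%, 56% and 51.6% of all genes. The median log2 fold change of the 10 genes was -0.22, 0.50 and -0.05, where that of all tested genes was 0.00, 0.02 and 0.01. Without mdx replicate 1, the median of the 10 genes in mdx against control was 0.11.

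These counts depended on how variance and scale were set. With 1 prior variance for all genes in place of one that follows the mean, 0 of the 10 genes were called in any comparison, although 3 had an unadjusted p under 0.05 in mdx against control. Calls were lost across the table with that setting, which left 181 genes higher and 360 lower in mdx against control, 0 and 0 in Sirt6mKO/mdx against mdx (where 3156 had an unadjusted p under 0.05), and 65 and 22 in Sirt6mKO/mdx against control. With no filter on low values, Id3 in mdx against control was the 1 call left among the 10 genes. The whole table, then 22489 genes, gave 417 higher and 572 lower calls in mdx against control, 154 and 14 in Sirt6mKO/mdx against mdx, and 169 and 52 in Sirt6mKO/mdx against control. When libraries were scaled to equal sums of values, the median log2 fold change of all genes moved to -0.58 in both comparisons of Sirt6mKO/mdx. That of the 10 genes moved to -0.12 against mdx and to -0.66 against control. Rn7sk, an abundant noncoding RNA named after its values were seen, had 93611 and 75143 normalized read counts in the control libraries, 305947 and 213198 in mdx and 593895 and 1116360 in Sirt6mKO/mdx. On that scale Bmpr1a (log2 fold change -1.50), Bmpr2 (-1.01) and Smad5 (-1.52) were called lower in Sirt6mKO/mdx against mdx, and Bmp6 (0.91, adjusted p = 0.0537) was not called, while Id2 lost its call against control. Id1 and Id3 remained called higher there. Against control, equal sums added lower calls in Sirt6mKO/mdx for Bmp4 (-1.04, adjusted p = 0.0289), Bmpr2 (-1.46, adjusted p = 0.00205) and Smad5 (-1.07, adjusted p = 0.0274). With the 10 most abundant genes left out of the sums, Bmpr2 (-1.15) was called lower in Sirt6mKO/mdx against control, Bmpr1a (-1.33) and Smad5 (-1.36) were called lower in Sirt6mKO/mdx against mdx, and Bmpr1a (1.09) was called higher in mdx against control.

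Other genes of the pathway were read from a list of 57 genes, of which 52 were in the table and 43 were tested. In mdx against control 3 of the 43 were called higher and 8 lower, where 6.89% and 7.34% of all tested genes were, and their median log2 fold change was -0.19. In Sirt6mKO/mdx against mdx 7 were called higher and 0 lower, where 5.62% and 2.54% of all tested genes were, with 14 at an unadjusted p under 0.05, against 25.2% of all, and a median of 0.37. Under equal sums of values that median was -0.26, and the median of the list against control was -0.60. All genes had -0.58 in both comparisons. With the 10 most abundant genes left out of the sums, the median of the list against mdx was -0.10, and that of all genes -0.42. The count of 7 fell to 4 without either mdx library, to 2 without Sirt6mKO/mdx replicate 1 and to 3 without Sirt6mKO/mdx replicate 2. In Sirt6mKO/mdx against control 3 were called higher and 4 lower, where 5.19% and 2.68% of all tested genes were, with a median of 0.00. These counts fell to 1 higher and 1 lower without Sirt6mKO/mdx replicate 1 and to 0 and 0 without Sirt6mKO/mdx replicate 2, and the 4 lower fell to 0 without control replicate 2. Of the 25 calls on the 14 pathway genes named below, 9 held when any 1 library was left out and 16 were lost without at least 1.

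Several of the called genes are known to act against the pathway. Smad7, the second inhibitory SMAD, had 272 and 225 normalized read counts in control mice, 54 and 68 in mdx mice and 277 and 281 in Sirt6mKO/mdx mice. Smad7 fell in mdx against control (log2 fold change -2.01, SE 0.29, adjusted p = 2.9e-04) and was higher in Sirt6mKO/mdx than in mdx (2.18, SE 0.29, adjusted p = 2.8e-04). Bambi encodes a pseudoreceptor without kinase activity that blocks type I receptors. It had 172 and 116 normalized read counts in control, 22 and 23 in libraries of mdx mice and 145 and 203 in those of Sirt6mKO/mdx, with log2 fold changes of -2.60 (SE 0.38, adjusted p = 2.9e-04) and 2.88 (SE 0.38, adjusted p = 2.5e-04) in those comparisons. For Smad7 and Bambi alike both mdx libraries were below all other 4, as they were for Id1 and Id3, and these 4 calls held when any 1 library was left out. Smad6 lacked this dip: its mdx values of 33 and 55 overlapped the control values of 53 and 58.

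Skil, a nuclear corepressor of SMADs, had 3397 and 3549 normalized read counts in the control libraries, 773 and 630 in mdx and 1682 and 1577 in Sirt6mKO/mdx. Its groups did not overlap, and Skil was called in all 3 comparisons (log2 fold changes of -2.31, 1.22 and -1.09). Tob1, a partner of SMADs that restrains BMP responses, had 489 and 440 in control mice, 130 and 148 in mdx mice and 362 and 395 in Sirt6mKO/mdx mice (log2 fold change -1.73 in mdx against control and 1.44 in Sirt6mKO/mdx against mdx). Nedd4l, a ubiquitin ligase that turns over SMADs and receptors, was called lower in mdx against control with a log2 fold change of -1.10, a call lost without control replicate 1 (-0.98) or mdx replicate 1 (-1.02, adjusted p = 0.0735). For Skil and Tob1 the call in mdx held when any 1 library was left out. Skil against mdx was not called without mdx replicate 2 (1.07), Sirt6mKO/mdx replicate 1 (1.18) or Sirt6mKO/mdx replicate 2 (1.27), and against control it was not called without control replicate 2 (-1.06), Sirt6mKO/mdx replicate 1 (-1.14) or Sirt6mKO/mdx replicate 2 (-1.05). Tob1 against mdx was not called without Sirt6mKO/mdx replicate 1 (adjusted p = 0.0545) or Sirt6mKO/mdx replicate 2 (adjusted p = 0.0664). Of the 9 SMAD partners and inhibitors tested, 4 were called lower in mdx against control, where 7.34% of all tested genes were. In Sirt6mKO/mdx against mdx 3 were called higher, where 5.62% of all tested genes were.

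Among extracellular antagonists, Chrdl2, a chordin-like protein that binds BMPs, had 684 and 728 normalized read counts in control, 136 and 137 in libraries of mdx mice and 354 and 160 in those of Sirt6mKO/mdx. Both mutant groups were below control, with log2 fold changes of -2.36 in mdx and -1.56 in Sirt6mKO/mdx. The former call held when any 1 library was left out, and the latter was lost without control replicate 2 (-1.52, adjusted p = 0.0728) or Sirt6mKO/mdx replicate 2 (-0.99, adjusted p = 0.168). Chrd, chordin itself, was called higher in Sirt6mKO/mdx against mdx (log2 fold change 1.43), and Twsg1, a chordin-binding protein that can promote or block BMP activity, was called lower in Sirt6mKO/mdx against control (-1.12). The call of Chrd was lost without any 1 of the 4 libraries compared (1.17 to 1.70), and that of Twsg1 without control replicate 2 (-0.80), Sirt6mKO/mdx replicate 1 (-1.09) or Sirt6mKO/mdx replicate 2 (-1.15). With Bambi, 2 of the 9 inhibitors tested were called lower in mdx, 2 higher in Sirt6mKO/mdx against mdx and 2 lower in Sirt6mKO/mdx against control. Of all tested genes, 7.34%, 5.62% and 2.68% were called in these directions.

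The ligand Bmp2 was low throughout, at 89 and 57 normalized read counts in the control libraries, 6 and 5 in mdx and 74 and 17 in Sirt6mKO/mdx. It was called lower in mdx against control (log2 fold change -3.48) and higher in Sirt6mKO/mdx against mdx (2.50). The first call was lost without control replicate 1 (-3.16, adjusted p = 0.0502), and the second without mdx replicate 1 (2.61), mdx replicate 2 (2.39) or Sirt6mKO/mdx replicate 1 (1.47, adjusted p = 0.411). It was the 1 called ligand of the 5 tested besides Bmp4 and Bmp6. Of the 10 further receptors and co-receptors, Acvr2a, a type II receptor shared with activins and myostatin, had 328 and 339 in control mice, 1037 and 806 in mdx mice and 748 and 706 in Sirt6mKO/mdx mice. Acvr2a was called higher against control in mdx (1.45) and in Sirt6mKO/mdx (1.12), and Eng, the co-receptor endoglin, was called lower in both (-1.66 and -1.60). The call of Acvr2a in mdx held when any 1 library was left out, and that in Sirt6mKO/mdx was lost without Sirt6mKO/mdx replicate 1 (1.08) or Sirt6mKO/mdx replicate 2 (1.16). The call of Eng in mdx was lost without control replicate 2 (-1.38), mdx replicate 1 (-1.71) or mdx replicate 2 (-1.60), and that in Sirt6mKO/mdx was lost without any 1 library but control replicate 1 (-1.11 without Sirt6mKO/mdx replicate 1 to -2.09 without Sirt6mKO/mdx replicate 2).

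Id4, the fourth ID gene, was counted as a further target. It had 38 and 21 normalized read counts in control, 9 and 4 in libraries of mdx mice and 25 and 58 in those of Sirt6mKO/mdx, and was called higher in Sirt6mKO/mdx against mdx (log2 fold change 2.47, adjusted p = 0.0406) but not called in mdx against control (-2.05, adjusted p = 0.0588). The mdx libraries were lowest for Id4 as they were for Id1 and Id3, at a much lower level. Runx2, a transcription factor of bone cells that BMPs induce, ran differently, with 18 and 6 in the control libraries, 47 and 58 in mdx and 108 and 101 in Sirt6mKO/mdx. It was called higher against control in both mutant groups (2.21 and 3.19). The call of Id4 was lost without any 1 of the 4 libraries compared (1.88 to 3.06). The call of Runx2 in mdx was lost without control replicate 2 (1.49), mdx replicate 1 (2.36) or mdx replicate 2 (2.06), and that in Sirt6mKO/mdx without Sirt6mKO/mdx replicate 1 (3.14) or Sirt6mKO/mdx replicate 2 (3.24).

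Of 6 bHLH partners of ID proteins tested, which were Myod1, Myf5, Myog and genes of E proteins, Myog, a factor of terminal myogenic differentiation, was the 1 call in mdx against control (log2 fold change 2.31) and in Sirt6mKO/mdx against control (1.96). In Sirt6mKO/mdx against mdx limma called 0 of them, and 1 had an unadjusted p under 0.05. That gene was Tcf12, named after its values were seen, which encodes an E protein. Its adjusted p was 0.0482 with a change short of 2-fold (log2 fold change -0.84), and in mdx against control it was 0.0251 (0.88). Its direction in both comparisons was opposite to that of Id1 and Id3. Myog had 124 and 281 normalized read counts in control mice, 945 and 920 in mdx mice and 432 and 1232 in Sirt6mKO/mdx mice. The mdx libraries lay above control and within the wide range of Sirt6mKO/mdx. The call of Myog in mdx held when any 1 library was left out, and that in Sirt6mKO/mdx was lost without control replicate 1 (1.37, adjusted p = 0.0967) or Sirt6mKO/mdx replicate 2 (1.21, adjusted p = 0.222).

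**Figure D4:**
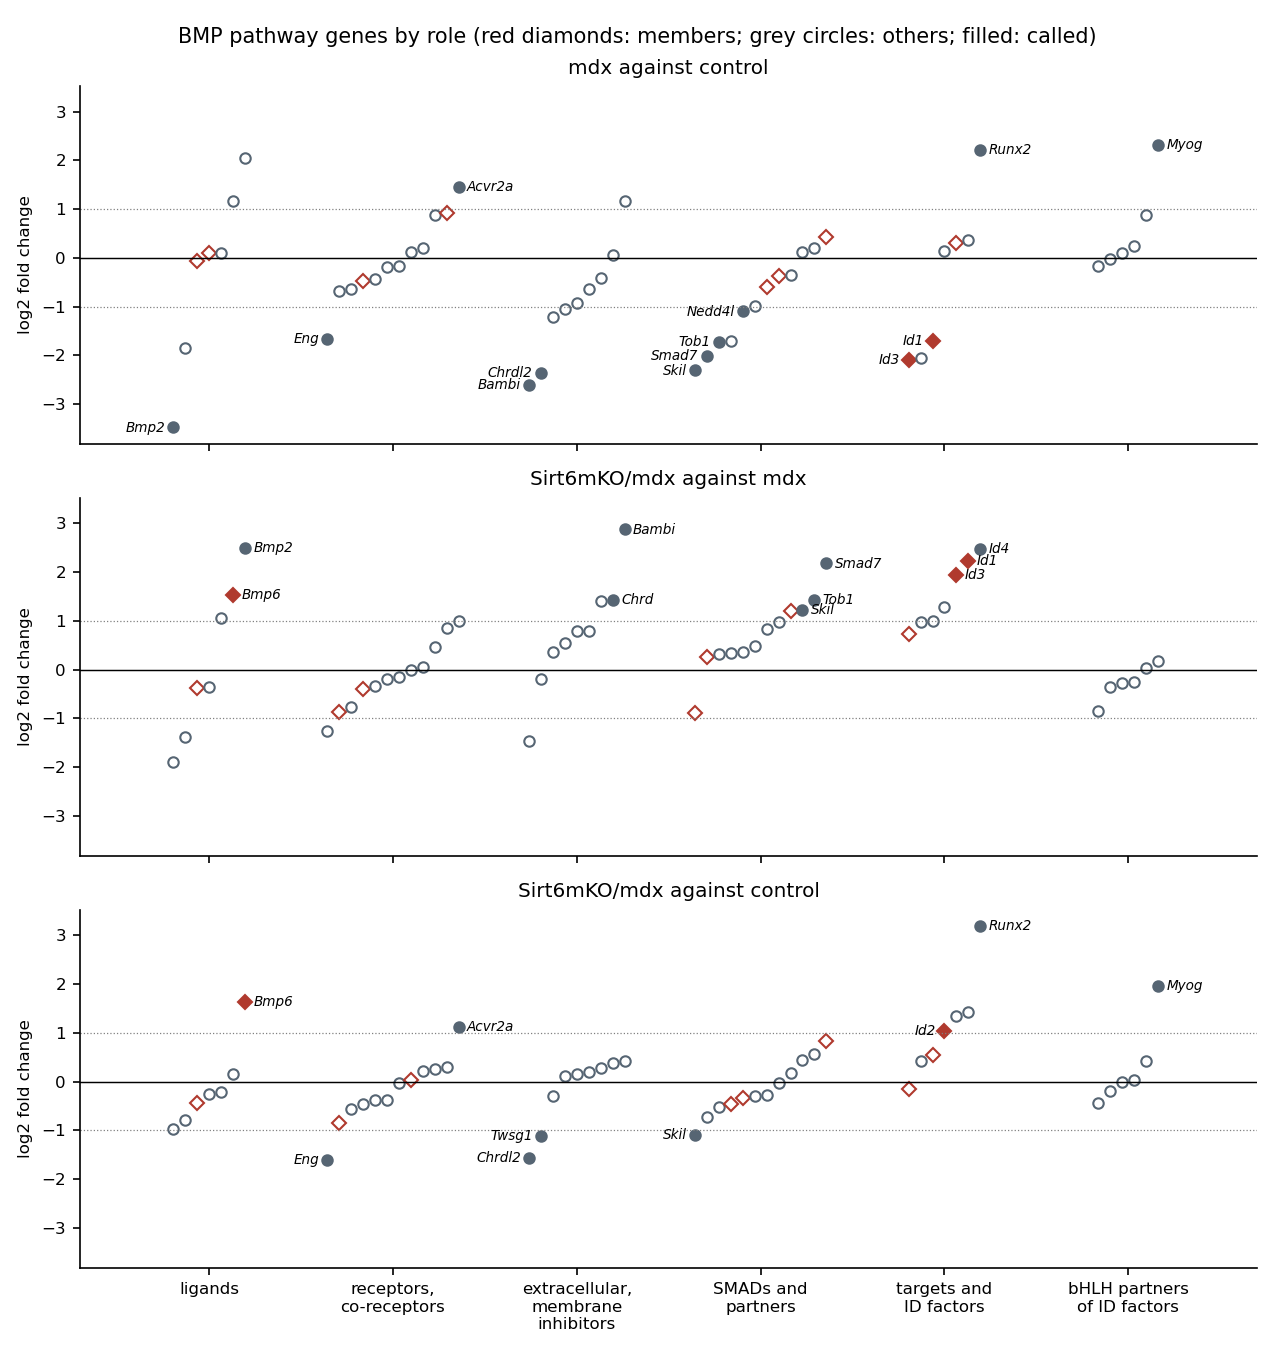
Log2 fold changes of the 10 genes (red diamonds) and 43 further pathway genes (grey circles) by role in the 3 comparisons, filled and named where called; dotted lines mark a 2-fold change. In mdx against control the calls among SMAD partners, inhibitors and ID factors lie below 0, and in Sirt6mKO/mdx against mdx all called genes lie above 0.

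Genes of the immediate early and cell dissociation response moved in the same comparisons as Id1 and Id3. Of 28 such genes, 27 were called lower in mdx against control (median log2 fold change -2.78) and 27 were called higher in Sirt6mKO/mdx against mdx (median 2.61). Of all tested genes, 7.34% and 5.62% were called so. In Sirt6mKO/mdx against control 1 was called higher and 4 were called lower (median -0.235), where 5.19% and 2.68% of all tested genes were. The summed values of the 28 genes ranged from 195370 to 217970 in control, from 26261 to 29764 in mdx and from 144211 to 151248 in Sirt6mKO/mdx. None was at 0 in any library. The 3 most abundant were the heat shock genes Hspa1b (43503 and 48342, 7574 and 7797, and 34311 and 24518 normalized read counts in control, mdx and Sirt6mKO/mdx), Dnajb1 and Hspa1a. Such genes are known to be induced within minutes of tissue digestion, and Id1 and Id3 are themselves known as quickly induced genes. The part of this response in the values of Id1, Id3, Smad7, Bambi and the other pathway genes was not tested.

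**Figure D5:**
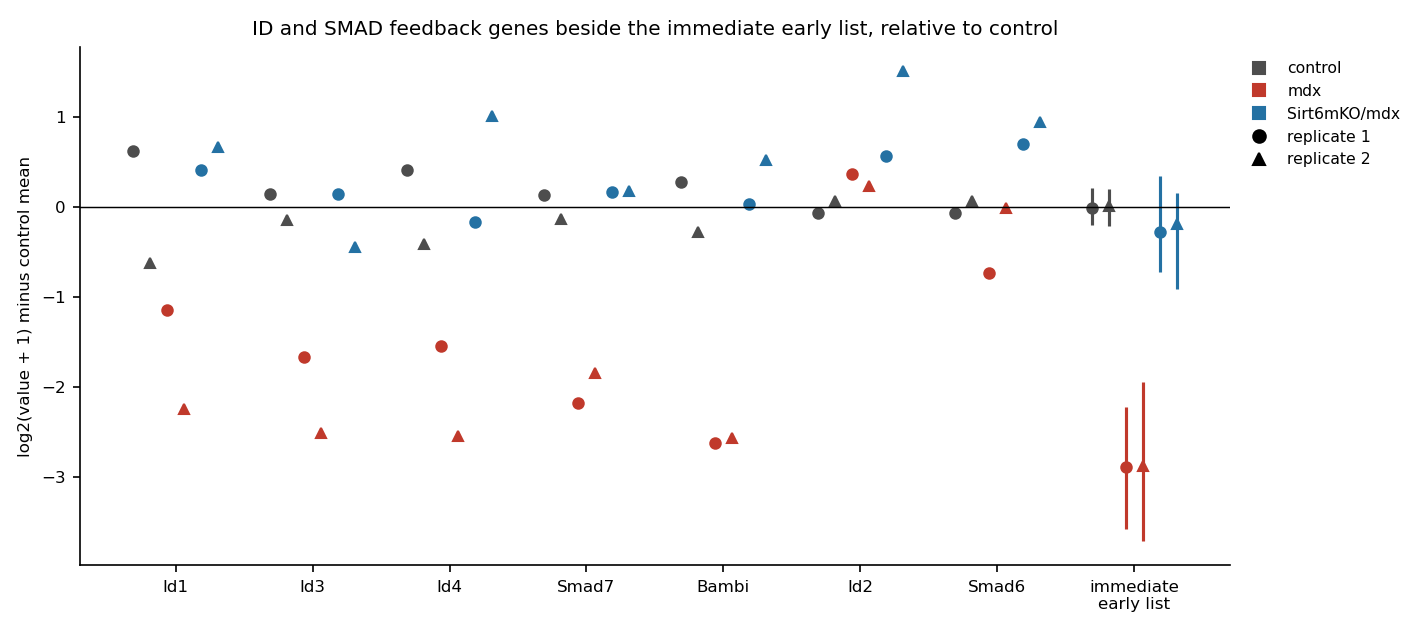
Log2(value + 1) of ID and SMAD feedback genes in each library minus the mean of the 2 control libraries; for the list of 28 immediate early genes the point is the median and the bar spans the quartiles. The points of Id1, Id3, Id4, Smad7, Bambi and the list lie below 0 in both mdx libraries and between -0.44 and 1.01 in Sirt6mKO/mdx, where the quartile bars of the list reach down to -0.72 and -0.91, while Id2 does not lie below 0 in mdx.

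Markers of other cells were also read, since endothelial cells, for example, are rich in Bmp6, Id1 and Id3. According to the methods, cells positive for CD31, CD45 or Sca1 were depleted before the sort by surface antigens. Of 10 endothelial markers 8 were tested. Of these 2, Pecam1 and Kdr, were called lower in mdx against control, and 0 were called in either comparison of Sirt6mKO/mdx. In Sirt6mKO/mdx against mdx 3 had an unadjusted p under 0.05 by limma. There 7 of the 8 had a log2 fold change above 0 (median 0.67). Their summed values ranged from 822 to 964 in control, from 455 to 476 in mdx and from 672 to 692 in Sirt6mKO/mdx. Most of that sum was Tek (669 and 631, 379 and 348, and 503 and 469 normalized read counts in the 3 groups), and Pecam1 had 199 and 86, 20 and 47, and 67 and 114. Cldn5 was at 0 in both control libraries and Emcn in both Sirt6mKO/mdx libraries. Of 8 myofibre markers 3 were called lower in mdx against control and 2 higher in Sirt6mKO/mdx against mdx, with summed values of 6872 to 7091 in control, 1500 to 5286 in mdx and 4351 to 10651 in Sirt6mKO/mdx. Of 10 fibro-adipogenic markers 2 were called higher in mdx against control (Col1a1 and Ly6a) and 1 lower in Sirt6mKO/mdx against mdx (Col1a1, log2 fold change -1.08), with summed values of 29348 to 35828 in control, 35859 to 46200 in mdx and 26918 to 34092 in Sirt6mKO/mdx. Of 7 macrophage and leukocyte markers tested, Lyz2 was called higher and Cd68 lower in mdx against control, and Lyz2 higher in Sirt6mKO/mdx against control, with summed values of the list of 124 to 141 in control, 97 to 124 in mdx and 204 to 213 in Sirt6mKO/mdx. Both Sirt6mKO/mdx libraries had the highest sums of these markers, and 7 of the 7 had a log2 fold change above 0 against mdx (median 0.65), with 0 called by limma and 1 at an unadjusted p under 0.05. Of 8 smooth muscle and pericyte markers, Acta2 was called higher and Abcc9 lower in mdx against control and Notch3 was called lower in Sirt6mKO/mdx against control, with summed values of 8290 to 9105, 7295 to 7989 and 4601 to 4724 in the 3 groups. Most of that sum was Notch3 (7831 and 6184, 4041 and 5382, and 3049 and 2789 normalized read counts in the 3 groups). By limma 0 of 4 Schwann markers were called, with 1 at an unadjusted p under 0.05 in each comparison of Sirt6mKO/mdx and 0 in mdx against control. The part of such cells or fragments in the results on the 10 genes was not tested.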

How the data were processed

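The deposited table held 22706 genes in 6 libraries. Per the labels and methods, the authors depleted ribosomal RNA, sequenced on an Ion Torrent instrument, aligned with STAR (2.4.2a in the submitters' processing notes) to GRCm38, counted with featureCounts 1.4.5-p1 without reads on several genes or places, and normalized with DESeq2 1.6.0. The deposited values are a score, namely counts divided by 1 size factor per library (0.537 to 1.53, recovered from the spacing of the values) and rounded, so a test for raw counts was not used. In its place limma 3.58.1 (R 4.3.3), with a prior variance that follows the mean, was run on log2(value + 1) with all 6 libraries and no block, two-sided, over the 15915 genes with a mean of at least 5. Approximate reads are values times size factors, summed.

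The 10 genes and all lists were chosen with earlier results of these data known. All 10 were reported. Pathway genes were named where called, with mean values from 20 upwards and groups that did not overlap, and of other lists the most abundant genes. Sdc4, Kdr, Cldn5, Emcn and the fibro-adipogenic, macrophage and smooth muscle markers were named after their values were seen. Same-numbered libraries did not deviate together (r of -0.13, 0.12 and 0.01 over 15915 genes), so the numbers were not taken as pairs. Lengths came from GENCODE M21, which held 98.5% of the identifiers. The p-values rest on the spread between replicates, pooled over the 3 groups of 2 libraries. That spread was drawn towards a prior variance fitted to all tested genes.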

Additional observations from a re-analysis of the deposited data

How the results depend on the processing

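Every call among the 10 genes rests on 2 libraries per group. Of the alternatives, another pseudocount (0.1 or 5), a mean of at least 50, equal upper quartiles, a robust prior and a fit of 4 libraries changed 1 count of calls among the 10 genes: genes called higher in Sirt6mKO/mdx against control fell to 1 with the pseudocount of 0.1 and with 4 libraries. With 1 prior variance for all genes, 0 of the 10 genes were called in each comparison, and of the pathway list 0 were called higher and 4 lower in mdx against control, 0 higher and 0 lower in Sirt6mKO/mdx against mdx, and 0 higher and 0 lower in Sirt6mKO/mdx against control; all genes fell to 181 higher and 360 lower, 0 and 0, and 65 and 22. Without the filter, the 10 genes gave 0 higher and 1 lower, 0 and 0, and 0 and 0 in the 3 comparisons, the pathway list 1 higher and 6 lower, 3 and 0, and 0 and 0, and all 22489 genes 417 higher and 572 lower, 154 and 14, and 169 and 52. With equal sums of values, 2 of the 10 genes were called higher and 3 lower in Sirt6mKO/mdx against mdx, and 1 higher and 3 lower in Sirt6mKO/mdx against control, while the pathway list had 3 higher and 3 lower, and 2 higher and 8 lower. With equal sums leaving out the 10 most abundant genes, a scaling chosen after the data were seen, the 10 genes gave 1 higher and 2 lower in mdx against control, 3 and 2 in Sirt6mKO/mdx against mdx, and 1 and 1 in Sirt6mKO/mdx against control, the pathway list 4 and 7, 4 and 3, and 2 and 4, and all genes 1567 and 958, 551 and 2021, and 577 and 1053. The direction turned for values that were not called: under equal sums Bmpr1a (-0.56) and Id1 (-0.06) in Sirt6mKO/mdx against control and Smad1 (-0.36) in Sirt6mKO/mdx against mdx, and under the scaling without abundant genes Bmp4 (0.10) in mdx against control, Bmpr1a (-0.25) in Sirt6mKO/mdx against control and Smad1 (-0.20) in Sirt6mKO/mdx against mdx. The cause was not tested for the variance settings, while the filter changes how many genes are tested and the scalings shift all genes.

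All genes called higher and lower were 895 and 405 in Sirt6mKO/mdx against mdx and 826 and 427 against control, and 479 and 2932 and 455 and 2692 under equal sums. With the replicate block, the calls among the 10 genes were again 2 lower, 3 higher and 2 higher, and calls among all genes moved from 1097 higher and 1168 lower to 1168 and 1247 in mdx against control, but the numbers do not pair the libraries.

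Leaving out 1 library at a time, the 10 genes gave 0 to 1 higher and 1 to 2 lower in mdx against control, 0 to 3 higher in Sirt6mKO/mdx against mdx and 1 higher in Sirt6mKO/mdx against control. The pathway list gave 2 to 3 higher and 6 to 9 lower, 2 to 7 higher, and 0 to 4 higher and 0 to 4 lower. All genes gave 282 to 1192 higher and 657 to 1164 lower, 182 to 997 and 21 to 481, and 167 to 853 and 46 to 461. Log2 fold changes ran from -0.39 to 0.25 for Bmp4 and -0.32 to 0.52 for Bmp6 in mdx against control, and from -0.18 to 0.27 for Bmpr1a, -0.09 to 1.17 for Id1 and -0.44 to 0.14 for Id3 in Sirt6mKO/mdx against control.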
